A study of Homo sapiens with 3 samples.

Results

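The regions described here are the Flag peaks that lay at the end of exactly 1 protein-coding gene, called single-gene peaks below. The cells were HCT116, an established line from a human colorectal cancer, made to express VCP with a Flag tag, and there was 1 chromatin immunoprecipitation library for the Flag antibody, 1 for an antibody to VCP and 1 for input chromatin without antibody. All 3 libraries came from formaldehyde-fixed cells whose chromatin was cut with micrococcal nuclease, and the sources used here name no untagged or untreated cells. Peak lists of the Flag and VCP libraries were analysed and the input was not analysed here. A Flag peak was taken when its summit lay within 1 kb of an outer end of 1 protein-coding gene and of no other, and 1623 of the 5719 Flag peaks met this rule. Of the 5692 Flag peaks on chromosomes 1 to 22, X and Y they made up 28.5% (exact 95% interval 27.3 to 29.7). The other 4069 comprised 404 peaks at the ends of more than 1 gene (paired gene ends), 1593 inside genes and 2072 between genes. With 1 library per antibody there was no replicate check and no test over peaks, so all intervals cover counting error only.

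VCP, also called p97, is an ATPase that uses cofactors such as UFD1, NPLOC4 and NSFL1C to pull ubiquitin-tagged proteins out of complexes, membranes and chromatin. On chromatin it is known for removing ubiquitinated factors at replication, repair and transcription sites. Around the start of an active gene, a promoter carries general transcription factors and RNA polymerase II in a stretch that is poor in nucleosomes, flanked by positioned nucleosomes on either side. Micrococcal nuclease cuts the DNA between nucleosomes and other bound proteins. Many human promoters lie in CpG islands, stretches rich in the dinucleotide CG.

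The promoters of the strongest single-gene peaks are shown first because the summits lay inside them. They are the first 6, in order of -log10 q, whose summit fell within the RefSeq promoter window of GRCh38.p14, which runs from 250 bases before to 50 bases after a listed start, so that the start is base 251 of 300. Capitals mark matches, on either strand, to the motifs searched. Those found here were the E-box, spelled CACGTG, the box named for its letters CCAAT, and the GC box, spelled GGGCGG. Also found were the AP-1 element, spelled TGANTCA with N for any base, and the TATA box, searched as TATAAA. Each is written 5′ to 3′ on the strand of its gene.
ARRDC4: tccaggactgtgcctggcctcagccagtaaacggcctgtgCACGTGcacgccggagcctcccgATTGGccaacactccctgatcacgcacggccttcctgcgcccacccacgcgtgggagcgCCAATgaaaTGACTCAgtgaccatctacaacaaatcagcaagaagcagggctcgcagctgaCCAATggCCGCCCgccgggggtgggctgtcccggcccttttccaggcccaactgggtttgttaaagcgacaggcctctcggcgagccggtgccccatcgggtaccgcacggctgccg
NECTIN3: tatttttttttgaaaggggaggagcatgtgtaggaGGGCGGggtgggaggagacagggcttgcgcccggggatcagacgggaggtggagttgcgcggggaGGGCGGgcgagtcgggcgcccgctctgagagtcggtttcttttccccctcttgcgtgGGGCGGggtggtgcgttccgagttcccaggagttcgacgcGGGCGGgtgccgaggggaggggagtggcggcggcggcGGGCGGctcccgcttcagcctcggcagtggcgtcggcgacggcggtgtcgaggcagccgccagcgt
CLTC: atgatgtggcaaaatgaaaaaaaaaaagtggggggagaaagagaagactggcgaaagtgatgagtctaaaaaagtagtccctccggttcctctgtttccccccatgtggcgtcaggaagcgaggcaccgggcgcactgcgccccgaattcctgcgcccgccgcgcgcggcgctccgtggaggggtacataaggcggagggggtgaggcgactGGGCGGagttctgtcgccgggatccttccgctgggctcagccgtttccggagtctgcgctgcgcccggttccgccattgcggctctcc
MPHOSPH6: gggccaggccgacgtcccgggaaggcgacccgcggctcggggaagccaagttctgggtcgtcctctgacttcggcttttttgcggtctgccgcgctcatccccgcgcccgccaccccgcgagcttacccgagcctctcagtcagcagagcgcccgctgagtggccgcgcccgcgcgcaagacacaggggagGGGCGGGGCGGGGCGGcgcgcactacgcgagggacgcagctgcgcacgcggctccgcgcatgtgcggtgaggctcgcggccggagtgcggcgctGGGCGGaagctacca
HBEGF: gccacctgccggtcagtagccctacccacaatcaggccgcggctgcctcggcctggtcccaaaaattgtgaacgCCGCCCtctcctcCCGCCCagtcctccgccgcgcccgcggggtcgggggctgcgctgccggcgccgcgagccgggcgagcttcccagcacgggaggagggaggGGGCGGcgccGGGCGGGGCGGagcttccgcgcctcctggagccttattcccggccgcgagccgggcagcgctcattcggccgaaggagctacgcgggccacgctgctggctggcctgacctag
H4C4: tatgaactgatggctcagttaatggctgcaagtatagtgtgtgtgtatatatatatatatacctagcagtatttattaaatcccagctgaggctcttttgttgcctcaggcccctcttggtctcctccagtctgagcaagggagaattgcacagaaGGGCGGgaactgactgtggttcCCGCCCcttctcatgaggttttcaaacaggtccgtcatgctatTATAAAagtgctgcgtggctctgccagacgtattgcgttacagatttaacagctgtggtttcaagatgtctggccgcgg

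The ARRDC4 window was chr15:97960453-97960752 on the plus strand. Its Flag summit fell on base 39, beside the single E-box, which began at base 41, and the window also held 3 CCAAT boxes, 1 AP-1 match and 1 GC box. NECTIN3 (chr3:111071566-111071865, plus strand) had 5 GC boxes, and its summit on base 98 lay beside the one that began at base 101. CLTC (chr17:59619645-59619944, plus strand) had its summit on base 90 and 1 GC box further downstream, at base 213. The summit of MPHOSPH6 (chr16:82170175-82170474, minus strand) was on base 15, away from its 4 GC boxes, 3 of which overlapped each other from base 192. HBEGF (chr5:140346554-140346853, minus strand) had 5 GC boxes around a summit on base 125. H4C4 (chr6:26189063-26189362, minus strand) was the only window of the 6 with a TATA box, at base 222 (-29 bp from the start), and its summit lay on base 194 between the GC box at base 179 and that TATA box. GC boxes were present in all 6 windows, as they are in 58.3% of all RefSeq promoters of this length, and a match of letters does not show a bound factor.

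Single-gene peaks lay at gene starts rather than at the other end. The strand of the gene was known for 1339 of them, and 1284 of these (95.9%, exact 95% interval 94.7 to 96.9) were nearer to the start and 55 (4.11%, 3.11 to 5.31) nearer to the 3′ end. For the other 284 peaks the strand was not known. Of the 1284 at starts, 820 (63.9%) had their summit within 250 bp of the outer start. Upstream summits numbered 720 (56.1%, 53.3 to 58.8), and the median position was -57.5 bp (quartiles -203 and 145 bp), where negative values lie upstream.

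The summits at starts formed a pair of crowds with a dip between them. In windows of 50 bp the count was highest at 150 to 100 bp upstream, with 129 summits, fell to 65 in the last 50 bp before the start, and was 101 at 50 to 100 bp inside the gene. Among the 567 peaks at starts with a q of at most 0.05, the peak caller's adjusted p-value, these windows held 63, 32 and 40 summits. The crowd inside the gene was less clear there. Upstream summits made up 59.1% (54.9 to 63.2) of these 567 and 53.7% (50 to 57.4) of the 717 weaker ones. The part between 250 and 100 bp upstream held 317 summits, the last 100 bp before the start 151, and the first 150 bp of the gene 248. Fold enrichment, the authors' ratio of summit reads to local background with 1 read added to both, hardly varied along the gene start, with medians of 3.76, 3.74 and 3.55 in these 3 stretches and 3.51 beyond 500 bp upstream.

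**Figure D1:**
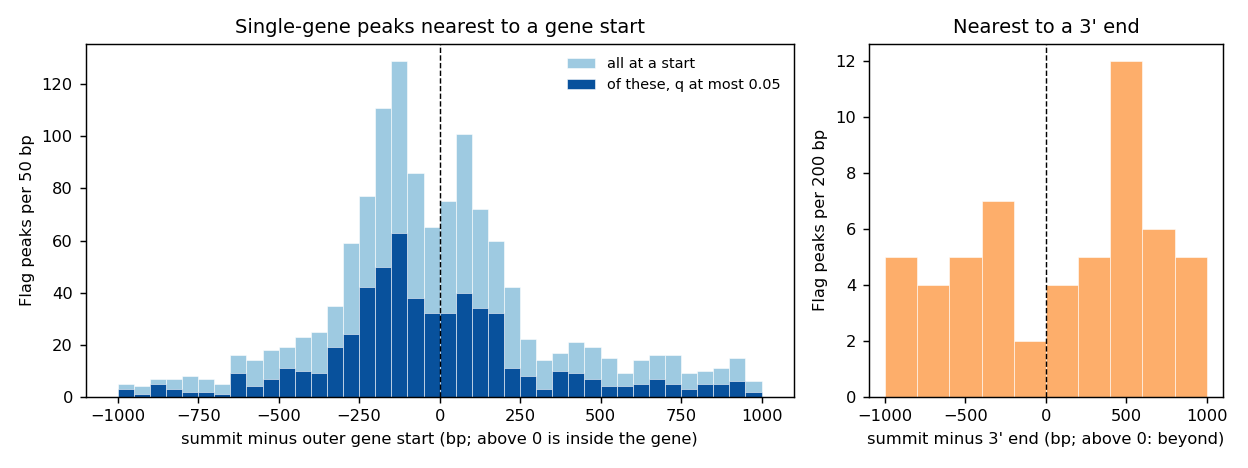
Position of the summits of single-gene peaks with known gene strand. Left, 1284 peaks at gene starts per 50 bp, with the 567 of q at most 0.05 in dark blue, and 2 crowds are seen at 150 to 100 bp upstream and 50 to 100 bp inside. Right, the 55 peaks nearest to a 3′ end per 200 bp, which show no such crowding at the end itself.

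Some summits away from the outer start lay near other starts of the same gene, though how often any position there does was not measured. Of the 464 start peaks over 250 bp from the outer start, 81 (17.5%, 14.1 to 21.2) lay within 250 bp of another RefSeq start listed for that gene. Long non-coding RNA genes were neighbours of some peaks too. An end of such a gene lay within 1 kb of 422 single-gene peaks (26.0%, 23.9 to 28.2). The other 4069 Flag peaks had 328 (8.06%, 7.24 to 8.94). Most of those others lay by rule over 1 kb from any protein-coding gene end, so the selection may set part of this contrast. Peaks at paired gene ends, which do lie at such ends, had 29 of 404 (7.18%, 4.86 to 10.15). How often protein-coding gene ends at large have such a neighbour was not measured. Of the peaks at starts, 296 (23.1%) had a long non-coding RNA start on the opposite strand within 1 kb, so a gene end counted as single here can still hold a non-coding start.

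The strongest single-gene peak marked ARRDC4, which encodes an alpha-arrestin, an adaptor that recruits ubiquitin ligases to membrane proteins. Its summit had 71 reads (exact Poisson 95% interval 55.5 to 89.6) over a background of 1.85, and lay 212 bp upstream of the start. COQ2, an enzyme of coenzyme Q synthesis, had 27 reads (17.8 to 39.3) at a summit 427 bp inside the gene. NECTIN3, a cell adhesion molecule, had 28 reads with its summit 153 bp upstream, and CLTC, the clathrin heavy chain, had 37 reads with its summit 161 bp upstream. ARRDC4 stood clear of these, and the intervals of the other genes overlapped one another.

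Further down the 20 peaks of highest -log10 q were several genes of the ubiquitin system. RNF130 (21 reads, summit 511 bp upstream) and RNFT1 (23 reads) encode ubiquitin ligases of membranes, and CAND1 (22 reads, 335 bp upstream) encodes the factor that exchanges the substrate receptors of cullin ligases. A second set encodes RNA-binding or RNA-processing proteins. It included MPHOSPH6, a cofactor of the nuclear exosome (31 reads), CNOT6, a deadenylase (26 reads), and RBM15B, a part of the m6A methylation machinery (20 reads). Others were HBEGF, a growth factor (22 reads), USE1, a vesicle fusion protein (22 reads), PDK2, a kinase of pyruvate dehydrogenase (31 reads), the histone genes H4C4 (24 reads) and H3C2 (21 reads), CSNK1D, casein kinase 1 delta (24 reads), TMEM18, a nuclear membrane protein (22 reads), and VRK1, a chromatin kinase (19 reads). Among these 20 genes the strand was known for 14, all of them with the peak at the start and 10 with the summit upstream. These groups were read from the 20 genes after their values were seen.

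**Figure D2:**
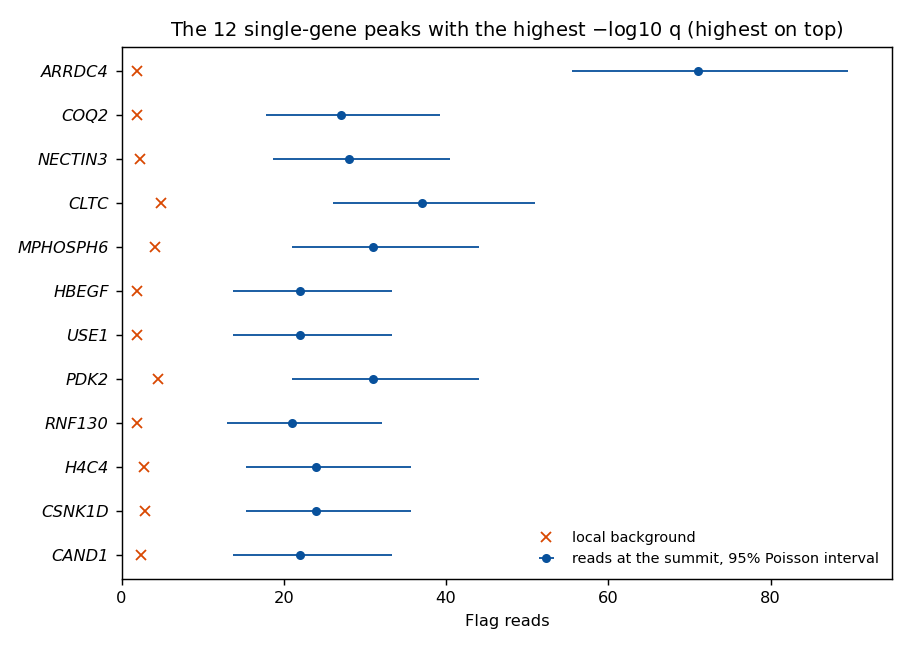
Reads at the summit (blue, with exact Poisson 95% intervals) and local background (orange) for the 12 single-gene peaks with the highest -log10 q, highest on top. ARRDC4, with 71 reads, stands apart from the rest, which lie between 21 and 37 reads.

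Set beside the other Flag peaks, single-gene peaks were somewhat stronger and wider at the median. Of the single-gene peaks, 721 had a q of 0.05 or less (44.4%, 42.0 to 46.9), against 1201 of the other 4069 (29.5%, 28.1 to 30.9) and 33.8% of all Flag peaks on chromosomes. Their median fold enrichment was 3.64 (quartiles 3.16 and 4.21), against 3.39 for the others (3.04 and 3.86). Peaks at paired gene ends had a median of 3.73, those inside genes 3.43 and those between genes 3.35. The median number of reads at the summit was 11 (quartiles 10 and 14), against 11 for the others (9 and 13), and the median background was 2.27 in both. Restricted to a q of 1e-05 or less, the difference in fold enrichment all but vanished, with 5.91 for 78 single-gene peaks and 5.89 for the 116 others.

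Width followed the same order. The median was 249 bp (quartiles 202 and 364), against 229 bp for the other Flag peaks (196 and 313), with 256 bp at paired ends, 229 bp inside genes and 224 bp between genes. Peaks of 400 bp or more made up 18.5% (16.6 to 20.5) of single-gene peaks and 11.2% (10.2 to 12.2) of the others. At a q of at most 1e-05 the order turned, with 282.5 bp for single-gene peaks and 308.5 bp for the others. The narrowest peak in every class was 180 bp. The widest single-gene peaks included those at NFATC4, a transcription factor gene (1070 bp, fold enrichment 3.24), FERMT2, an integrin activator (859 bp), ANKRD28, a phosphatase subunit (790 bp), and NBN, a DNA break sensor (776 bp). Their summits had 14, 8, 15 and 14 reads in that order.

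The share of Flag peaks that were single-gene peaks was lowest among those of low -log10 q. It was 22.3% (20.3 to 24.5) of 1568 peaks under 0.5, 29.8% of 1606 peaks from 1 to 2, and 43.5% (39.0 to 48.0) of 483 peaks from 3 to 5. It was 41.3% (33.8 to 49.2) of 167 peaks from 5 to 10. Above 10 it was 33.3%, with 9 of 27 peaks (16.5 to 54.0), too few to place against the bins below.

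**Figure D3:**
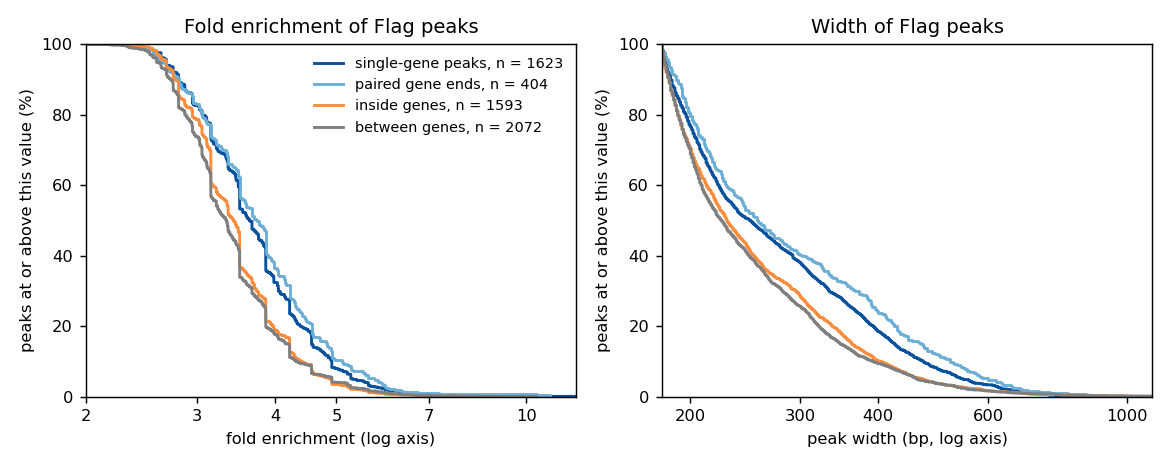
Share of Flag peaks at or above each fold enrichment (left) and each width (right), on log axes, for the 1623 single-gene peaks, 404 peaks at paired gene ends, 1593 inside genes and 2072 between genes. The single-gene curve runs just under that of paired ends over most of the range and above the other 2 classes, and the axes end before the few largest values.

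Overlap with the VCP antibody list was measured as at least 1 shared bp. It was found for 102 single-gene peaks (6.28%, 5.15 to 7.58), against 94 of the other Flag peaks (2.31%, 1.87 to 2.82) and 3.44% of all Flag peaks on chromosomes. Peaks at paired gene ends had nearly the same share, 25 of 404 (6.19%, 4.04 to 9.0), and those inside genes (2.45%) and between genes (1.45%) had less. The 102 overlapped 102 distinct VCP peaks at 102 genes, with summits a median of 81.5 bp apart. They had a median Flag fold enrichment of 3.98, against 3.61 for the 1521 single-gene peaks without overlap, and the share with overlap was larger in stronger peaks, at 3.85% of 650 peaks with -log10 q under 1 and 11.5% of 78 peaks at 5 or more. Of the 20 strongest single-gene peaks only that of RNF130 overlapped a VCP peak (Flag fold enrichment 7.73 and 21 reads, VCP 4.38 and 11 reads, summits 241 bp apart). Of the 102 overlapped VCP peaks, 22 (21.6%) had a q of at most 0.05, against 117 of all 1803 VCP peaks on chromosomes (6.49%), and their median VCP fold enrichment was 3.6, against 3.28.

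Next in Flag -log10 q among the overlapping genes after RNF130 came VIRMA, the scaffold of the m6A writer (Flag 25 reads, VCP 15 reads, summits 21 bp apart), PABPC1, the poly(A)-binding protein (27 and 17 reads, 6 bp apart), and MUS81, a structure-specific nuclease (17 and 8 reads, 36 bp apart). KMT2A, a histone H3 methyltransferase, had 21 Flag reads and 12 VCP reads at summits 288 bp apart. GABPB2, a subunit of an ETS-family transcription factor, had 24 Flag reads and 20 VCP reads at summits 27 bp apart, the most VCP reads of the 10 genes. HIBCH, an enzyme of valine breakdown (17 and 9 reads), TMEM94, a membrane protein gene (24 and 11), KITLG, the ligand of the receptor KIT (17 and 9), and BORCS7, a lysosome positioning factor (18 and 11), completed the 10. Among the 10 VCP peaks only that of GABPB2 had a q of at most 0.05 (VCP -log10 q 4.78). The VCP peaks at VIRMA, MUS81 and KITLG were at 0.206.

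In all, 1556 of 19866 protein-coding genes had a single-gene peak, which is 7.83%, the level to which every list below is compared. At a q of at most 0.05 there were 706 (3.55%). The background includes genes that these cells do not express, and expression was not measured. Of 33 gene lists, 26 had a larger share than all genes and 7 a smaller one, but only 275 of the 1556 genes were in any list. The lists were compared with this level by counts alone and without a test. Intervals lay wholly above 7.83% for immediate early, histone, proteasome, chromatin, autophagy and lysosome, vesicle coat and tether, oxidative phosphorylation and ubiquitin enzyme genes. They lay wholly below it for olfactory receptors and keratin-associated proteins, and the intervals of all other lists included it. These intervals treat genes as independent and were not adjusted for the 33 lists. The lists were chosen with earlier results of these data known, so this sorting is a description only.

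Replication-dependent histone genes, which are transcribed in S phase to package new DNA, had single-gene peaks at 16 of 62 (25.8%, exact 95% interval 15.5 to 38.5), and 10 of the 16 had a q of at most 0.05. The histone H4 genes H4C4 (fold enrichment 6.72), H4C2 (5.75) and H4C5 (4.06) and the histone H3 gene H3C2 (6.84) led. Their summits lay from 57 bp upstream to 129 bp inside the gene. Counting Flag peaks at paired ends too, which 10 further histone genes had, 26 had a peak of either kind. None of the 19 single-gene histone peaks overlapped a VCP peak, where 6.28% of all single-gene peaks did. With only 19 peaks these shares cannot be told apart. Histone genes exist in near-identical copies, and how reads that match several copies were placed is not known here, so values of single histone genes are uncertain.

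Genes of protein breakdown were present in several lists. Proteasome subunits had 9 of 36 (25%, 12.1 to 42.2), led by the core subunits PSMB1 (fold enrichment 4.52, 15 reads) and PSMA3 (4.21, 11 reads) and the regulatory-particle subunits PSMD4 (4.03, 14 reads) and PSMD7 (4.21, 11 reads). Enzymes that attach or remove ubiquitin had 13 of 77 (16.9%, 9.31 to 27.1), among them the cullin CUL5 (4.30, 15 reads) and UBE2S, a partner of the anaphase-promoting complex (4.22, 15 reads).  VCP and its cofactors had 2 of 34 (5.88%, 0.721 to 19.7), a share below that of all genes. The order turned at a q of at most 0.05, where the list had 5.88% against 3.55% of all genes, and with paired ends counted, where it had 14.7% against 11.7%. The 2 genes were the adaptor gene NSFL1C (fold enrichment 4.30, 16 reads, summit 102 bp upstream) and VCP itself (4.21, 11 reads, 71 bp upstream). The unfolded protein response and its degradation pathway had 3 of 32 (9.38%), ATF4 (25 reads), EDEM2 (13 reads) and ERN1 (12 reads), and chaperones had 5 of 38 (13.2%) with CCT7 (17 reads) and HSPH1 (12 reads).

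Lysosome and vesicle genes had shares near that of the proteasome. Autophagy and lysosome genes had 10 of 46 (21.7%, 10.9 to 36.4), but only 3 of these with a q of at most 0.05, and their median fold enrichment was 3.16. LAMP1, a lysosome membrane protein (fold enrichment 5.31, 26 reads, summit 159 bp upstream), HEXA, a lysosomal hydrolase (4.55, 18 reads), and ATG4C, an autophagy protease (3.76, 13 reads), were the strongest. Coat and tether proteins of vesicles had 12 of 56 (21.4%, 11.6 to 34.4), with SEC24C of the coat that leaves the endoplasmic reticulum (4.04, 25 reads) and the endosome sorting genes VPS33A (4.59, 14 reads) and VPS26A (4.07, 16 reads) after CLTC. RAB GTPases had 8 of 63 (12.7%), led by RAB6A (17 reads), but at a q of at most 0.05 the list had 1.59%, against 3.55% of all genes. RAB25 and RAB28 just missed this limit, at a -log10 q of 1.293. Cholesterol synthesis had 3 of 24 (12.5%), with SQLE, MVD and SREBF1 at 13, 12 and 10 reads.

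Chromatin modifiers and remodelers had 18 of 79 (22.8%, 14.1 to 33.6), with 12 at a q of at most 0.05 and a median fold enrichment of 4.21, above the 3.64 of all single-gene peaks. The 4 strongest summits were all upstream of the start. KMT2A (fold enrichment 5.27) was at 164 bp upstream, KDM1A, a histone demethylase (5.97, 16 reads), at 120 bp, BRPF1, a scaffold of an acetyltransferase (5.62, 15 reads), at 118 bp, and SMARCE1, a remodeler subunit (5.20, 16 reads), at 330 bp. RNA polymerase II and general transcription genes had 8 of 47 (17%, 7.65 to 30.8), with the TFIID subunits TAF5 (18 reads), TAF7 (15 reads) and TAF12 (15 reads) first, and Mediator had 5 of 32 (15.6%). Splicing factors had 8 of 57 (14%, 6.26 to 25.8). SNRPE, a core protein of the spliceosome particles (5.91, 21 reads), SRSF3 (3.67, 21 reads) and TRA2B (4.55, 14 reads), which are splicing regulators, all had summits inside the gene, at 145, 171 and 637 bp.

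Oxidative phosphorylation had 14 of 75 (18.7%, 10.6 to 29.3), with UQCRC2 of complex III (fold enrichment 6.06, 17 reads), COX5A of complex IV (5.27, 14 reads) and NDUFS8 of complex I (4.92, 13 reads). Peaks at 5 of the 14 genes overlapped a VCP peak, where 6.28% of all single-gene peaks did, and these genes were picked out after their values were seen. They were NDUFAB1, COX8A, NDUFA12, NDUFS7 and NDUFB4, and only NDUFAB1 and COX8A had a Flag q of at most 0.05. The VCP peaks there had -log10 q of 0.0545, 0.206, 0.0545, 0.414 and 0.389 in that order, so none had a q of at most 0.05. Mitochondrial ribosomal proteins had 10 of 77 (13%), led by MRPS31 (4.79, 19 reads), and cytoplasmic ribosomal proteins 10 of 78 (12.8%), led by RPL11 (5.62, 15 reads). Initiation and elongation factors had 5 of 44 (11.4%), with EEF1A1, the elongation factor that delivers tRNA (4.08, 29 reads), and transfer RNA synthetases 3 of 20 (15%), GARS1, TARS1 and IARS1.

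Genes of genome maintenance had 9 of 70 for DNA damage and repair (12.9%, 6.05 to 23), 7 of 46 for mitosis and cohesin (15.2%, 6.34 to 28.9) and 4 of 47 for DNA replication (8.51%, 2.37 to 20.4), the last close to the level of all genes. With peaks at paired ends counted, DNA replication had 21.3% and DNA damage and repair 28.6%, against 11.7% of all genes, and with the 500 bp window DNA replication had 6.38%, against 7.02%. ERCC5, a nuclease of nucleotide excision repair (fold enrichment 5.75, 23 reads), ATR, the replication stress kinase (4.32, 19 reads), and MDC1, a mediator of the break response (4.30, 15 reads), were strongest in repair. The cohesin regulator PDS5B (5.54, 15 reads) and the cohesin ring subunit SMC3 (3.19, 21 reads) led the mitosis list. PRIM1, a primase subunit (4.21, 11 reads), led replication.

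Immediate early genes, which respond quickly to growth signals, had the largest share, 10 of 32 (31.2%, 16.1 to 50). Their median fold enrichment was 3.505, against 3.64 for all single-gene peaks. Of the 10 genes, only 3 had a q of at most 0.05, namely KLF10 (fold enrichment 4.05, 21 reads), MYC (3.51, 20 reads) and SPRY2 (4.25, 13 reads). DUSP6 and JUND just missed this limit, at a -log10 q of 1.293, which was also the median of all single-gene peaks. WNT components and targets had 6 of 30 (20%, 7.71 to 38.6), with TCF7L2 (3.35, 16 reads) and AXIN2 (3.67, 13 reads) after MYC, which is on both lists. The p53 targets had 2 of 28 (7.14%), PLK3 and TP53INP1. Zinc finger genes had 43 of 510 (8.43%, 6.17 to 11.2) and solute carriers 25 of 363 (6.89%, 4.51 to 10.0), both near the level of all genes. At a q of at most 0.05 the zinc finger genes had 2.35% and the p53 targets 3.57%, against 3.55% of all genes, and with the 3 kb window the solute carriers had 8.81%, against 8.28%.

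Olfactory receptor and keratin-associated protein genes were rarely marked. Olfactory receptors had 2 of 389 (0.514%, 0.0623 to 1.84), OR1F1 and OR13A1, with fold enrichments of 2.84 and 3.16. HOX genes had 2 of 39 (5.13%, 0.627 to 17.3), an interval that includes the level of all genes. Keratin-associated proteins had 0 of 94, which allows a share of up to 3.85%, and markers of other cell types 0 of 30, which allows up to 11.6%. Intestinal epithelium genes had 3 of 21 (14.3%, 3.05 to 36.3), KRT19, KLF5 and ELF3, at 11, 10 and 7 reads, and 0 of the 3 had a q of at most 0.05. The arrestin family had 1 of 8, ARRDC4.

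**Figure D4:**
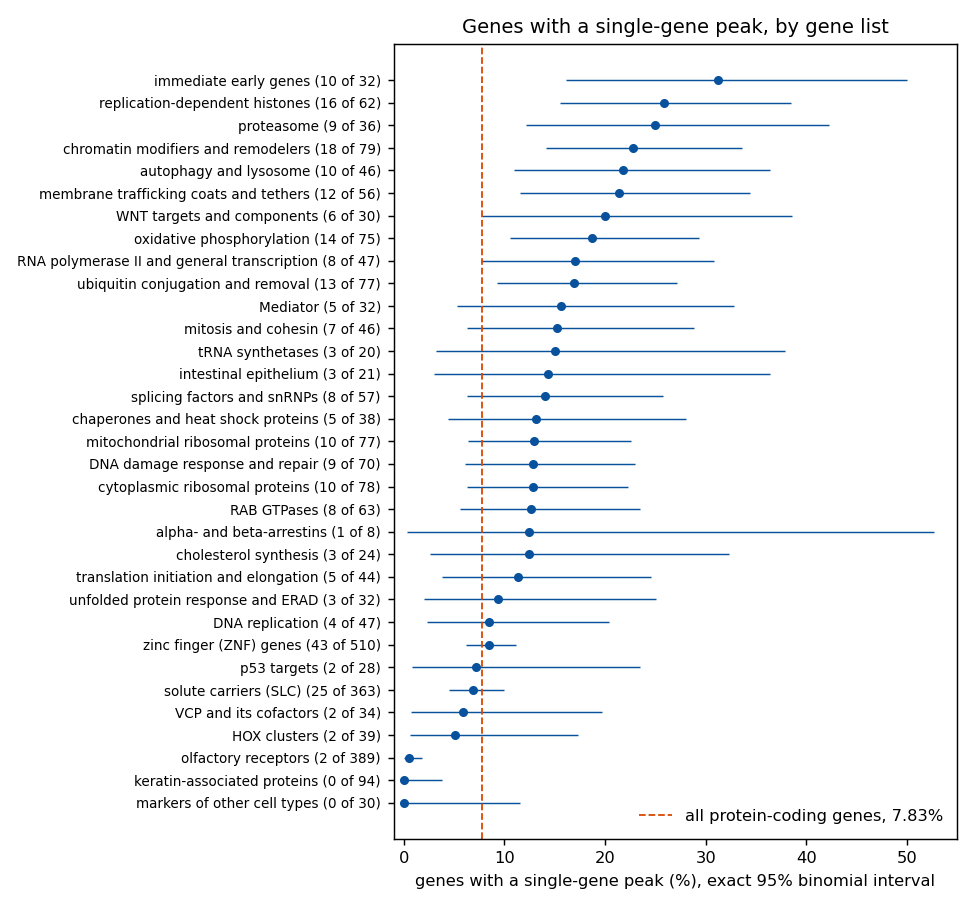
Share of each gene list with a single-gene peak, with exact 95% binomial intervals, beside the 7.83% of all protein-coding genes (dashed). Immediate early genes (10 of 32), histones (16 of 62) and the proteasome (9 of 36) are at the top, and olfactory receptors (2 of 389) and keratin-associated proteins (0 of 94) at the bottom.

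The few peaks at 3′ ends were less crowded around the gene end than those at starts. Their median fold enrichment was 3.46, against 3.65 at starts, and their median width was 265 bp, against 249 bp. Their summits were spread over the window, and 8 of 55 (14.5%, 6.49 to 26.7) lay within 250 bp of the end. Genes under 3 kb long held 19 of the 55 and 52 of the 1284 at starts, and 6 of the 55 were at histone genes. RefSeq starts were near some of them, with 9 of the 55 (16.4%, 7.77 to 28.8) within 1 kb of a listed start of another gene. Within 1 kb of a listed start of the same gene were 4 of the 55 (7.27%, 2.02 to 17.6). The strongest was at POLR3GL, an RNA polymerase III subunit gene, 728 bp beyond its end (fold enrichment 5.97, 16 reads, 9.15 to 26.0). CIB3, a calcium-binding protein gene, followed with its summit 177 bp beyond the end (4.75, 21 reads). At FMNL1, a formin gene, the summit was 401 bp beyond the end and 206 bp from the start of the antisense transcript MAP3K14-AS1. Not all such starts were of antisense transcripts. The summit at LOC124902602 was 82 bp from a listed start of PRCP, and that at NAPA was 111 bp from one of KPTN. The transcription regulator HES1 had a pair of peaks, 812 bp before and 763 bp beyond its 3′ end (4.33 and 3.58), and SERTAD1 another pair, 161 bp before and 656 bp beyond (3.46 and 3.10).

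More than 1 single-gene peak was present at 66 genes, 65 of them with 2 and H4C4 with 3. Neighbouring summits at these genes had a median spacing of 683 bp (515 to 888 bp between quartiles), and none was closer than 320 bp. Of the 45 genes with 2 peaks both at the start, 28 had 1 upstream and 1 inside the gene, 10 had both upstream and 7 both inside. The H4C4 summits lay 57 and 460 bp upstream of the start and 263 bp beyond the end of this short gene, with fold enrichments of 6.72, 4.72 and 3.35. KLHL21, an adaptor of a cullin ligase, had summits 861 and 244 bp upstream (4.85 and 4.59), and TAF12 had them 792 and 233 bp upstream (3.46 and 4.41). ZNF687, a zinc finger gene, and COA7, an assembly factor of the respiratory chain, each had 1 close to the start, at 11 and 56 bp upstream, and 1 inside, at 801 and 541 bp.

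The promoters of genes with a single-gene peak at the start were rich in CpG. Their median ratio of observed to expected CpG was 0.863 (quartiles 0.747 and 0.971, n = 1238 genes), against 0.761 (0.395 and 0.913) for all 15843 protein-coding genes with a RefSeq promoter. A ratio of at least 0.6 was found for 1098 (88.7%, 86.8 to 90.4), against 65.6% of all. The share of genes with a single-gene peak at the start was larger in each higher bin of the ratio, with 0.904% (0.537 to 1.42) of 1991 genes under 0.2, 8.75% (7.82 to 9.75) of 3394 genes from 0.6 to 0.8, and 13% (11.5 to 14.6) of 1859 genes at 1 or more. Median GC content was 66.0%, against 62.7% for all genes. The 691 genes at paired ends had a similar CpG ratio, with a median of 0.845. Base composition of the sequenced fragments was not measured, and its part in these values was not tested.

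Motif matches were counted in the same promoters, and whether their shares go with base composition was not tested. The ETS core CCGGAAG was found in 268 of the 1238 promoters (21.6%, 19.4 to 24.0), against 14.2% of all, and the GC box GGGCGG in 71.8% (69.2 to 74.3), against 58.3%. The core TGACGT of the cyclic AMP response element was in 12.8%, against 9.66%, the full element TGACGTCA in 3.8%, against 2.56%, and the E-box CACGTG in 10.7%, against 8.82%. TATAAA was less frequent, in 6.79% (5.45 to 8.33) against 9.75%, as were TGANTCA (4.20% against 5.70%) and the heat shock element GAANNTTC (4.12% against 5.56%). CCAAT was at 35.0%, against 36.4% of all. The rarer letters GCATGCGC (NRF1) were at 5.49% against 4.28%, AAGATGGCG (YY1) at 3.88% against 2.69%, and TCTCGCGAG (ZBTB33) at 1.86% against 1.05%. ACTACAATT (ZNF143) was at 0.808% (0.388 to 1.48), an interval that includes the 0.461% of all. Genes at paired ends differed from all genes in the same direction, with ETS at 26.3%, the GC box at 67.6% and TATAAA at 4.78%. Only NRF1 (3.62%) and CCAAT (38.6%) went the other way there. The differences in ETS, GC box and TATAAA were thus not particular to single-gene peaks. Both strands were searched, and the element of cyclic AMP contains its core, so these counts overlap.

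**Figure D5:**
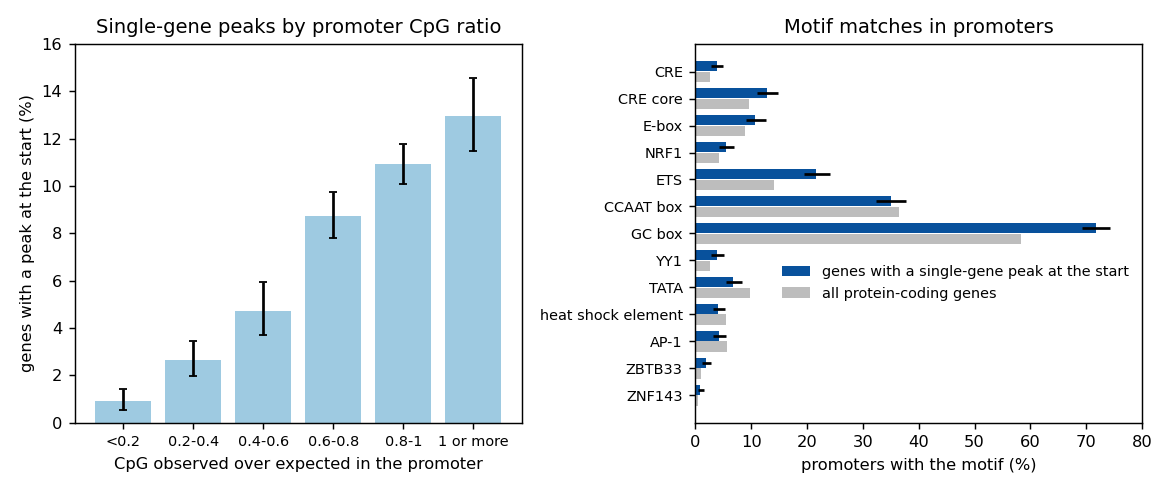
Left, share of protein-coding genes with a single-gene peak at the start by CpG ratio of the promoter, from 0.904% under 0.2 to 13% at 1 or more, with exact 95% intervals. Right, share of promoters with each motif in the 1238 genes with such a peak (blue, with exact 95% intervals) and in all 15843 genes (grey), where ETS and GC box matches are more frequent and TATA matches less frequent in the blue bars.

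Genes with a single-gene peak were longer than protein-coding genes at large, with a median of 30.9 kb (quartiles 12.4 and 79.3 kb), against 24.5 kb (8.68 and 65.6 kb). Among the autosomes the share of genes with a single-gene peak lay between 5.04% on chromosome 21 and 10.1% on chromosome 13. On the X chromosome it was 1.06%, with 9 of 848 genes (0.486 to 2.01).

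The limit of 1 kb did not cut through a crowd of peaks. Single-gene peaks numbered 399 within 100 bp of the gene end and 49 between 900 and 1000 bp, and 40 Flag peaks lay in the next 100 bp outside. Just inside were peaks at PPP1R3E (999 bp, fold enrichment 4.13), SPIN1 (995 bp, 3.23) and ITPRID2 (994 bp, 3.76). Just outside were peaks near FAM193A (1001 bp, 3.86), IGBP1C (1002 bp, 4.95) and TMEM87B (1003 bp, 4.59).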

How the data were processed

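The study mapped chromatin bound by VCP in HCT116 cells by immunoprecipitation and sequencing. Per the labels' protocols, fixation took 10 minutes (1% formaldehyde) and the chromatin was partly digested with micrococcal nuclease. Each library used 10 ng of DNA and 8 rounds of PCR, and 250 to 450 bp fragments were selected. The submitters' processing notes name bcl2fastq 2.17, Trimmomatic 0.33, Bowtie 1.1.2, MACS2 2.1.0 and hg38. Settings and the placing of multiply matching reads: not given in the sources used here. For every peak the deposited files give coordinates and a summit, and the authors' fold enrichment ratio, score, -log10 p and -log10 q. The deposited score was not used. The lowest -log10 p was 3.00 in both lists and the median -log10 q was 0.974 in the Flag list, so many peaks do not pass a q of 0.05.

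Total reads per library are not in the lists. Reads at a summit were recovered from the authors' fold enrichment and -log10 p, with Poisson tails and a pseudocount of 1 read, and came out whole within 0.001 for 5719 of 5719 Flag and 1816 of 1816 VCP peaks. The lowest background was 1.85 Flag reads and 1.74 VCP reads. Low reads widen every interval, and whether PCR copies of 1 fragment count as separate reads is not given in the sources used here.

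Gene ends came from RefSeq on GRCh38.p14. Of 59792 gene rows, 58961 on the chromosomes were kept, 19866 of them protein-coding. Strand came from the RefSeq promoter table, for 15843 genes. Promoter measures used 1 promoter per gene, the one nearest the outer start. The expected CpG count is the product of the C and G counts over the length. Gene lists were written by member (26 lists, 1142 of 1142 symbols matched) or by symbol pattern (7 lists). The pattern for RAB genes was narrowed after it was seen to take RAB11 effector genes. Named genes were the 20 peaks of highest -log10 q, the 10 highest at 3′ ends and with VCP overlap, the 5 widest, the 5 genes with most peaks, up to 5 peaks on each side of the limit, and up to 4 per list. SERTAD1 and the 5 oxidative phosphorylation genes with VCP overlap fall outside this rule and were chosen after their values were seen. The peaks, lists and rules were chosen with earlier results of these data known. Shares have exact binomial (Clopper-Pearson) 95% intervals and reads exact Poisson ones; no test was made over peaks. Values of some genes that the rule picks are not reported here. The code was tested on simulated data. Python 3.11.15, pandas 2.3.3, numpy 2.4.6, SciPy 1.17.1 and matplotlib 3.10.9 were used.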

Additional observations from a re-analysis of the deposited data

Results flagged for a closer look

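Flag peaks on contigs outside the chromosomes were left out by the rule. They numbered 27, on 22 contigs, above the 3 that a count of 0 allows.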

How the results depend on the processing

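The number of single-gene peaks stayed within 1.5 times of 1623 with windows of 500 bp and 3 kb, with ends of all RefSeq genes and with the midpoint of the peak. It was 721 at a q of at most 0.05 and 78 at a q of at most 1e-05, since fewer peaks enter. The median -log10 q of single-gene peaks was 1.293, just short of a q of 0.05, and many peaks shared this value. The share at starts was 92.3% with the 3 kb window and 97.1% at a q of at most 0.05. The median position was -115.5 bp at a q of at most 1e-05. Median width was 268 bp for single-gene peaks and 246 bp for the others at a q of at most 0.05, and 282.5 and 308.5 bp at a q of at most 1e-05, where the order turned; the cause was not tested. Median fold enrichment was 4.30 and 4.21 at a q of at most 0.05, and 5.91 and 5.89 at a q of at most 1e-05. The share with a q of at most 0.05 was 41.9% with the 3 kb window. The overlap with VCP peaks was 4.31% when it had to cover at least 50% of the Flag peak, 3.88% for summits within 100 bp, 8.32% for summits within 1 kb, 9.02% at a Flag q of at most 0.05 and 1.36% at a VCP q of at most 0.05. The other Flag peaks had 1.55%, 1.55%, 3.15%, 4.75% and 0.369% under these 5 settings, in that order. The share of all protein-coding genes with a single-gene peak was 7.02% with the 500 bp window, 8.28% with the 3 kb window, 3.55% at a q of at most 0.05 and 11.7% when peaks at paired gene ends counted too. Under these 4 settings 25, 26, 25 and 25 of 33 lists had a larger share than all genes, and 8 lists changed side under at least 1 of them, among them the unfolded protein response with the 3 kb window (6.25%). Of the 13 motif shares, all 13 stayed within their intervals at a q of at most 0.05. The 558 promoters counted there are part of the same 1238, so this says little about the weaker peaks. Leaving out replicates was not possible with 1 library per group. No paired analysis was possible because each group holds 1 library. Depth is low, with a median of 11 reads at a summit, so most single peaks are uncertain.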
